A study of Mus musculus with 8 samples.

Results

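The comparison described here is Keap1 KD IRI kidney against WT IRI kidney, that is, the difference that Keap1 knockdown makes in a mouse kidney injured by ischaemia and reperfusion. Its members were chosen by sample title: 2 arrays of Keap1 KD IRI kidneys and 2 of WT IRI kidneys, which are 4 of the 8 arrays of the series. All mice were male and 16 weeks old, and the genotypes were wild type and Keap1 knockdown. In both injured groups the vessels of the left kidney were clamped for 45 minutes, the right kidney was left unclamped, and the left kidney was taken 1 day later. The other 4 arrays, 2 of WT normal and 2 of Keap1 KD normal kidneys, came from mice whose left kidney was not clamped. They entered the fit so that all groups share 1 estimate of the spread, and they give the knockdown difference without injury that is set beside the injured one below. The allele or promoter behind the knockdown and the cells it acts in are not given in the sources used here. No label says whether the 2 arrays of a group are separate mice, so p-values measure the spread between these arrays, which may be technical.

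KEAP1 is the adaptor that ties the transcription factor NRF2 (gene Nfe2l2) to a ubiquitin ligase, so that NRF2 is degraded while KEAP1 is active. Electrophiles and oxidants modify cysteines of KEAP1, NRF2 then builds up, enters the nucleus, pairs with small MAF proteins and binds antioxidant response elements near genes for glutathione synthesis, conjugation, quinone reduction, NADPH supply, heme breakdown and drug efflux. In the kidney, ischaemia followed by reperfusion damages mainly proximal tubule cells, which depend on oxidative metabolism of fatty acids, lose transport functions after injury, and are replaced by division of surviving cells.

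The level of a gene is given here as the log2 of its background-corrected spot intensity minus the log2 of that array's 75th percentile, so 0 is the 75th percentile of the array and a difference of 1 is a 2-fold change. A gene was tested when the scanner software marked at least 1 of its probes as clearly brighter than background on the pair of WT IRI arrays or on the pair of KD IRI arrays, which kept 27164 of 41174 probes and 20203 genes, 13917 of them with a gene symbol. A gene is called higher or lower when its adjusted p in limma, after Benjamini-Hochberg adjustment over all 20203 genes, is below 0.05. The 4 injured arrays had between 65.7% and 67.8% of their spots well above background and no saturated spot. Across genes the levels of the 2 WT IRI arrays correlated at r = 0.9896 and those of the 2 KD IRI arrays at r = 0.9946, and genes are not independent replicates. The median standard deviation of a gene between the arrays of a group was 0.131 in WT IRI and 0.0906 in KD IRI. Array 1 of every group lay on one slide and array 2 on the other. Markers of kidney tissue were present on all 4 injured arrays: Umod of the loop of Henle lay between 7.54 and 7.77, Slc34a1 of the proximal tubule between 4.50 and 5.46, and the collecting duct channel Aqp2 and the endothelial gene Pecam1 were above background. Markers of tissue next to the kidney were also above background. Adipoq, an adipocyte hormone, lay at -1.41 and -1.47 in WT IRI and at -1.17 and -3.89 in KD IRI, and Plin1, a lipid droplet protein of fat, at -2.93 and -2.21 and at -2.87 and -4.90. Fat genes were therefore lowest on array 2 of KD IRI, and what this contributes to other differences was not tested.

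In injured kidney, 1472 of 20203 genes (7.29%) differed between KD and WT: 765 (3.79%) were higher and 707 (3.5%) were lower with the knockdown. Of these, 438 (2.17% of the genes tested) differed at least 2-fold, 205 (1.01%) higher and 233 (1.15%) lower. In 25 of the 765 and 50 of the 707 the group with the lower level was not well above background on either array. Those 75 genes were tested only through the other group, and their p-values use levels below background. In each of the 1472 genes the 2 KD arrays lay on one side of the 2 WT arrays, and the difference had the same sign on both slides. Such separation alone is common, since 57.3% of all genes tested showed it. Over all genes the median difference was -0.04 and the median absolute difference was 0.21. Across genes, the KD minus WT difference on the first slide correlated with that on the second at r = 0.592, and with the slide as a block 1820 genes passed. The number of calls depends on the arrays in the fit: it fell to 24 without array 2 of KD IRI, to 220 without array 1 of KD IRI, to 327 and 325 without array 1 or array 2 of WT normal, and to 79 when only the 4 injured arrays were fitted, with 75 of those 79 among the 1472. Of 217 called genes from the lists and names used below, 12 kept their call in every alternative in which they were followed, apart from the fit to the 4 injured arrays: Keap1, Nqo1, Cbr3, Txnrd1, Gpx2, Gsta3, Gsta4, Gstm2, Gstm3, Ugdh, Abcc4 and Slc16a14. Slc16a14 was not tested when genes had to be above background on all 4 injured arrays. Single probes and the 2-fold minimum were not followed by gene. Of the 217, 14 kept it without array 2 of KD IRI, 142 with normexp background correction, 55 without array 1 of KD IRI, 84 without either array of WT normal, 157 without array 1 and 168 without array 2 of WT IRI, and this bears on each paragraph that follows. Members of gene lists that are named below in addition to the largest changes of a list were chosen after their values were seen. Counts of called list members stand against 3.79% of all genes called higher and 3.5% called lower. Without injury these shares were 6.41% and 8.84%, and in the interaction test 3.86% positive and 2.77% negative.

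Keap1 itself, the targeted gene, was lower in both knockdown groups. The WT IRI arrays gave 2.66 and 2.50 and the KD IRI arrays 1.33 and 1.04, without overlap. The difference was -1.39 ± 0.117 (SE, n = 2 against 2), a 2.63-fold lower level (adjusted p = 0.00493, limma). Without injury Keap1 was lower by a similar amount, -1.25 (adjusted p = 0.004), and the interaction, the injured difference minus the uninjured one, was -0.14 (adjusted p = 0.65). Nfe2l2, which codes for NRF2, lay at 3.42 and 3.42 in WT IRI and at 3.27 and 3.24 in KD IRI, a difference of -0.16 that did not pass the test (adjusted p = 0.404). Keap1 was the only one of 15 listed KEAP1 and NRF2 regulators called. The other 14, among them partners and competing regulators of KEAP1, differed by -0.30 to 0.64, with the largest absolute difference in Palb2 (0.64, adjusted p = 0.132).

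Many genes for antioxidant and detoxifying enzymes were higher in KD IRI. In 10 lists of NRF2 targets and the metabolic systems they serve, 154 distinct genes were tested, of which 46 (29.9%, against 3.79% of all genes) were higher in KD IRI, 6 were lower and 102 did not pass. The median difference over the 154 was 0.1 against -0.04 over all genes, since most members were not called. Of the 46, 36 were also called higher in KD normal against WT normal, where 6.41% of all genes were called higher. Of the same 46, 15 passed when only the 4 injured arrays were fitted and 11 without array 2 of KD IRI.

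Nqo1, the quinone reductase that serves as a classic readout of NRF2, lay at 1.87 and 2.08 in WT IRI and at 4.15 and 3.89 in KD IRI. Both KD arrays were above both WT arrays, and the difference was 2.05 ± 0.115 (SE), or 4.14-fold (adjusted p = 0.00119). Cbr3, a carbonyl reductase, rose further, from 2.89 and 3.02 to 6.29 and 5.85, a difference of 3.12 ± 0.162 (8.68-fold, adjusted p = 0.0011). Of 18 quinone, carbonyl and aldo-keto reductases 6 were higher and none lower: besides these 2 genes, Aox1 (1.55), Ptgr1 (1.45), Akr1b8 (1.45) and Akr1b3 (0.52). The median of the 18 was -0.10, and the 12 members that were not called lay between -1.04 and 0.66. Akr1c14, an aldo-keto reductase of steroids, had the largest absolute difference of the 12, -1.04 (adjusted p = 0.133). Ptgr1, which reduces prostaglandins and reactive aldehydes, lay at 1.98 and 1.86 in WT IRI and at 3.46 and 3.28 in KD IRI. Its knockdown difference without injury was 0.27 (adjusted p = 0.25) and its interaction was 1.18 (adjusted p = 0.03). It is among 10 of the 46 genes that passed the interaction test in the positive direction. Of all 765 genes called higher 243 did so, against 3.86% of all genes tested. The injured difference enters both the call and the interaction, so these counts are not independent of it.

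Glutathione conjugation followed. Of 21 glutathione S-transferases 10 were higher and none lower, and their median was 0.77, or 0.14 with normexp background correction. Gsta4, which conjugates the lipid peroxidation product 4-hydroxynonenal, lay at 0.48 and 0.69 in WT IRI and at 3.05 and 2.93 in KD IRI, a difference of 2.41 ± 0.0952 (5.32-fold, adjusted p = 0.000426). Gstm3 lay at 4.63 and 4.46 against 6.05 and 5.82, a difference of 1.40 ± 0.106 (adjusted p = 0.00374). The others called were Gsta1, Gsta2, Gsta3, Gstm1, Gstm2, Gsto1, Gstp1 and Mgst2, with differences from 0.77 to 1.30. Members of the alpha and mu classes are close in sequence, so a probe may read more than 1 of them, and how much each contributes was not tested. With normexp the calls of Mgst2 (0.14, adjusted p = 0.857) and Gstp1 (0.93, adjusted p = 0.153) ended. Gstm6 had the largest difference of the 11 that were not called (0.81, adjusted p = 0.0786). Gsta4 rose by 1.29 without injury, and its interaction of 1.12 passed the test (adjusted p = 0.016).

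In glutathione synthesis and cysteine supply 3 of 16 genes were called higher and 1 lower. Gclc, the catalytic subunit of the rate-limiting ligase, lay at 4.14 and 4.30 in WT IRI and at 5.26 and 5.05 in KD IRI, a difference of 0.93 ± 0.102 (adjusted p = 0.00917). Gclm, its modifier subunit, lay at 0.90 and 0.71 against 1.65 and 1.32, a difference of 0.68 ± 0.126 (adjusted p = 0.0276). Gsr, which returns oxidised glutathione to its reduced form, differed by 0.79 (adjusted p = 0.0128). Oplah, which opens 5-oxoproline in the gamma-glutamyl cycle, was lower, at -0.57 (adjusted p = 0.0241). Slc7a11, the cystine carrier, had a difference of 2.19 ± 0.607, from -3.90 and -3.20 to -1.57 and -1.15, and did not pass (adjusted p = 0.0741), although both KD arrays were above both WT arrays, and it passed with the slide as a block (adjusted p = 0.0444). With the block 5 genes of the list were higher, and with normexp Oplah no longer passed. The median of the 16 was -0.23. For Gclc the knockdown difference without injury was 2.02, and the interaction of -1.08 passed the test (adjusted p = 0.019), as did 2.77% of all genes in the negative direction.

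Among enzymes that remove peroxides, Gpx2, the epithelial glutathione peroxidase, stood out. It lay at -3.46 and -3.09 in WT IRI and at 0.32 and 0.78 in KD IRI, a difference of 3.82 ± 0.256 (14.1-fold, adjusted p = 0.00223). Its interaction was 1.89 (adjusted p = 0.034) on top of a difference of 1.93 without injury. Its relatives went the other way by small amounts: Gpx1 was at -0.36 (adjusted p = 0.0277) and Gpx3, the plasma form made in the proximal tubule, at -0.41 (adjusted p = 0.02). The other 8 of 11 glutathione peroxidases, catalase and superoxide dismutases did not pass, and Sod3 had the largest absolute difference of these (-0.43, adjusted p = 0.324). In the thioredoxin and peroxiredoxin system 6 of 16 genes were higher and 1 lower. Txnrd1, thioredoxin reductase, lay at 4.34 and 4.36 against 5.77 and 5.80, a difference of 1.44 ± 0.082 (2.71-fold, adjusted p = 0.00119). Srxn1, sulfiredoxin, which repairs overoxidised peroxiredoxins, differed by 1.14 (adjusted p = 0.018), and Prdx1, Prdx4, Prdx6 and Txnrd3 by 0.43 to 0.58. Msrb1, a methionine sulfoxide reductase, was lower at -0.70 (adjusted p = 0.0367), while without injury it was higher by 0.77. With normexp the calls of Gpx1, Gpx3, Msrb1 and Prdx1 ended. Txnip, an inhibitor of thioredoxin, was at -0.62 and did not pass (adjusted p = 0.292).

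**Figure D1:**
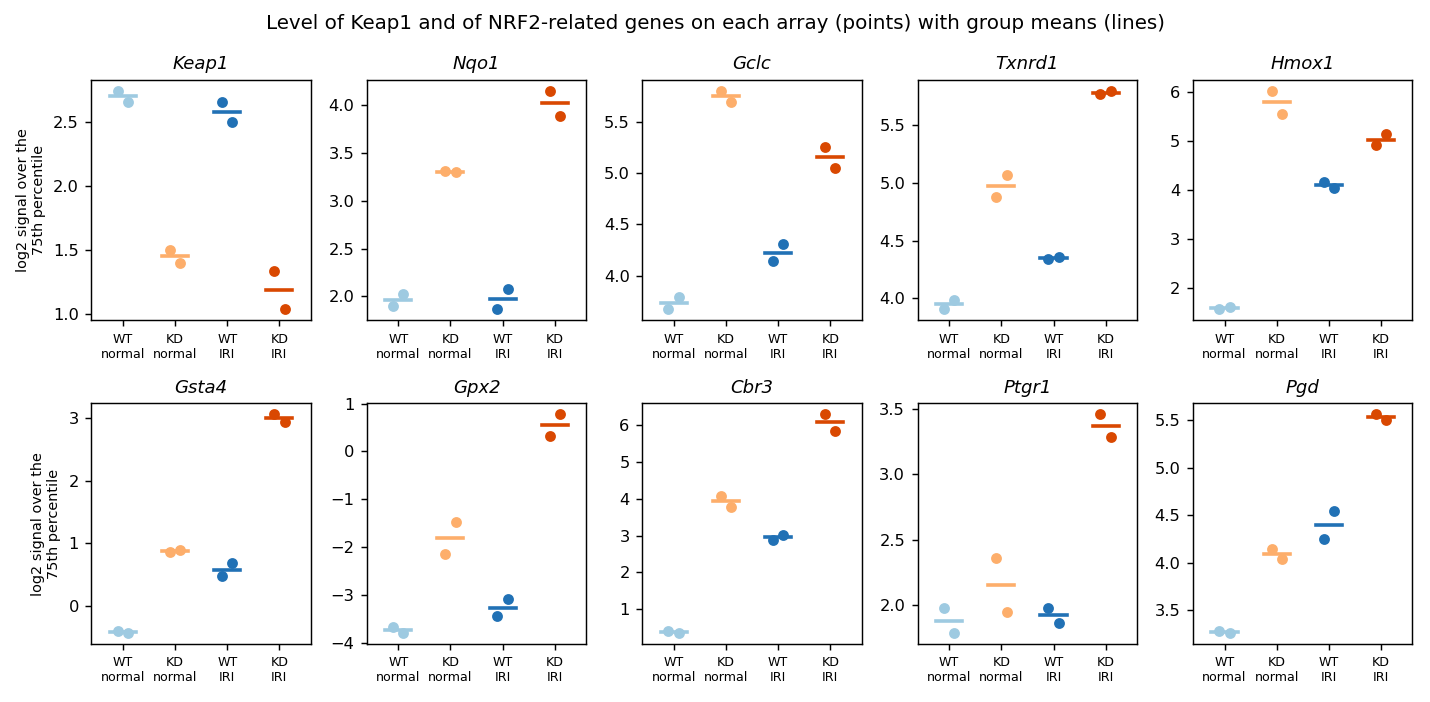
Level of Keap1 and of 9 NRF2-related genes on each of the 8 arrays (points; left point slide 1, right point slide 2), with group means as lines; the y axis is the level on the log2 scale relative to the 75th percentile of the array and differs between panels. Keap1 is lower in both KD groups, Nqo1, Txnrd1, Gsta4, Gpx2, Ptgr1 and Pgd are highest in KD IRI, and the gap between KD and WT is smaller with injury for Gclc and Hmox1.

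Enzymes of the pentose phosphate pathway, which supplies NADPH, were higher in 4 of 9 genes and lower in none. Pgd lay at 4.25 and 4.54 in WT IRI and at 5.56 and 5.50 in KD IRI, a difference of 1.13 ± 0.104 (adjusted p = 0.00602), and G6pdx, the entry enzyme, differed by 0.82 (adjusted p = 0.012). Taldo1 and Tkt of the non-oxidative branch differed by 0.61 and 0.65, and neither passed with normexp. H6pd, the enzyme of the endoplasmic reticulum that works on the same substrate as G6pdx, was at -0.20 and did not pass (adjusted p = 0.544). Of 15 genes for heme breakdown and iron handling 4 were higher. Hmox1, heme oxygenase 1, lay at 4.17 and 4.04 against 4.91 and 5.15, a difference of 0.93 ± 0.16 (adjusted p = 0.024). Without injury the same difference was 4.21, from 1.57 and 1.60 to 6.03 and 5.55, and the interaction of -3.28 passed (adjusted p = 0.0056). Hmox1 in WT IRI was thus above WT normal, and KD IRI was below KD normal. Blvrb, a biliverdin reductase, differed by 1.04 (adjusted p = 0.013), and the iron exporter gene Slc40a1 and the heme transporter gene Slc48a1 by 0.60 and 0.73. Tfrc, the transferrin receptor, had the largest difference of the 11 that did not pass (0.63, adjusted p = 0.191).

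Glucuronidation and efflux contributed 5 higher genes and 1 lower of 15. Ugt2b35, a UDP-glucuronosyltransferase, had the largest rise of all genes with a symbol. It was not well above background on either WT IRI array, at measured levels of -7.97 and -8.10, and lay at -1.80 and -1.82 on the KD IRI arrays. Set against the lowest level measured above background on the WT arrays, it was at least 17.9-fold higher. That bound uses, on each array, the higher of that lowest level and the probe's own. The adjusted p of Ugt2b35 in limma, 0.000426, rests on WT levels below background. With normexp background correction its difference was 1.44 and did not pass (adjusted p = 0.287). Abcc3, an efflux pump for conjugates, lay at -0.53 and -0.30 against 1.03 and 1.26, a difference of 1.56 ± 0.13 (adjusted p = 0.00493). Abcc4 and Abcc1, from the same family, differed by 1.47 and 1.02, and Ugdh, which makes the UDP-glucuronate used in conjugation, by 1.16. Abcc6, a transporter that acts on mineralisation, was lower at -1.34 (adjusted p = 0.0151). Ugt2b5 did not pass (1.32, adjusted p = 0.0837), but did with the slide as a block (adjusted p = 0.0461). With normexp the calls of Abcc6, Esd and Akr1b3 ended, and the median of the glucuronidation and efflux list was 0.13 in place of 0.60. Of 18 other published NRF2 targets 8 were higher: Pir (1.63), Ptgr1, Slc39a4 (1.19), Trim16 (1.19), Srxn1, Osgin1 (1.09), Htatip2 (0.65) and Esd (0.41). Pir, an iron-binding nuclear protein, lay at -1.75 and -1.53 in WT IRI and at 0.05 and -0.08 in KD IRI. Adh7, an alcohol dehydrogenase that was 2.50 higher without injury, differed by 1.06 and did not pass (adjusted p = 0.0725). Of 17 aldehyde dehydrogenases Aldh1a2, which makes retinoic acid, was higher by 1.25 (adjusted p = 0.00414) and Aldh8a1 lower at -1.23 (adjusted p = 0.0237). Aldh1a3 had the largest difference of those that did not pass (1.85, adjusted p = 0.0546), and it passed with the slide as a block (adjusted p = 0.0289).

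Promoter windows were read for the core of the antioxidant response element. The windows come from RefSeq on GRCm38.p6 and run from 250 bases before to 50 bases after a gene's start. A gene can have several, such as Abcc4 with 2 and Txnrd1 with 3, and held the motif if any of them did. Of its matching windows the one with the lowest coordinate is shown, which need not be the main promoter. The motif searched was TGACNNNGC on both strands. The 6 sequences below are those of the called NRF2-related genes with the largest rises among windows that hold the motif; each shows the first match and 20 bases on either side, 5′ to 3′ on the gene's strand, with the match in capitals.
Pir, chrX:164269197-164269245, plus strand: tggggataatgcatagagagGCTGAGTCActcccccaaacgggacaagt
Abcc4, chr14:118676926-118676974, minus strand: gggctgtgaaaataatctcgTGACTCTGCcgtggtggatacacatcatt
Txnrd1, chr10:82859094-82859142, plus strand: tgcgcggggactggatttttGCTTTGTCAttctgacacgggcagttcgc
Gsta3, chr1:21240444-21240492, plus strand: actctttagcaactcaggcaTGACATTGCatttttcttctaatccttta
Aldh1a2, chr9:71215657-71215705, plus strand: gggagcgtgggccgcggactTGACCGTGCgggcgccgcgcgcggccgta
Ugdh, chr5:65435946-65435994, minus strand: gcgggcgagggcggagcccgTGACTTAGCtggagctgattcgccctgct
In Pir and Txnrd1 the match is on the opposite strand, so it reads as its reverse complement, and Pir and Ugdh each hold 2 matches in their window. Of the 46 NRF2-related genes called higher, 34 had a window and 12 of these (35.3%) held the motif. Among the NRF2-related genes that were not called the share was 16.8%, among all tested genes with a window 16.5% (1831 of 11103), and among all 32851 windows that RefSeq gives it was 12.4%. It was 20.7% among all genes called higher and 17.4% among all called lower. A match in these letters is a description of the window, and no binding was measured.

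The largest rises outside these lists were mostly in dim genes. The 15 genes with the largest rises, leaving out clone and predicted names, were Ugt2b35, Olfr19, Atp13a4, Gpx2, Cbr3, Igf2bp3, Doc2b, Sppl2c, Ces1g, Ptchd1, Cxcl5, Gsta4, Adam23, Slitrk4 and Lce1i. Of these, Olfr19, Atp13a4, Igf2bp3, Doc2b, Sppl2c and Adam23 were not well above background on either WT IRI array, like Ugt2b35, and their bounds were at least 4.5-fold, 4.32-fold, 2.5-fold, 1.73-fold, 2.42-fold and 1.89-fold higher. Slitrk4 and Lce1i were above background on 1 WT IRI array. With normexp background correction these 8 genes besides Ugt2b35 had differences below 0. Ptchd1 and Cxcl5 also lost their calls with it, at 0.56 (adjusted p = 0.594) and 0.47 (adjusted p = 0.767). Ces1g, a carboxylesterase that hydrolyses lipid esters, lay at -0.59 and -1.50 in WT IRI and at 2.48 and 1.10 in KD IRI, a difference of 2.83 ± 0.586 (7.13-fold, adjusted p = 0.0365). Ptchd1 lay at -4.45 and -4.97 against -1.69 and -2.52, a difference of 2.61 (adjusted p = 0.016). Cxcl5, a chemokine that attracts neutrophils, lay at -5.47 and -5.23 against -2.79 and -2.76, a difference of 2.57 ± 0.246 (5.95-fold, adjusted p = 0.00649).

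Many of the largest falls were in transcripts that were below background in KD IRI. Astn1, Zdbf2, Fgf21, Mmp28, Ccdc83, Slc16a14, A2m, Myl1 and Tmem269 were not well above background on either KD IRI array. Their levels were at least 5.18-fold, 3.97-fold, 3.46-fold, 4.96-fold, 1.66-fold, 6.79-fold, 1.73-fold, 1.25-fold and 1.43-fold lower. The p-values of these genes use KD IRI levels below background. Fgf21, a fasting hormone induced through PPARA, lay at -5.50 and -2.57 in WT IRI (adjusted p = 0.0366). Slc16a14, a monocarboxylate transporter family member, lay at -3.10 and -3.02 in WT IRI and at -6.00 and -5.81 in KD IRI, with an adjusted p of 0.00119. Fmo5, a flavin-containing monooxygenase, was well measured on all 4 arrays, at 0.24 and -0.11 against -2.12 and -2.47, a difference of -2.36 ± 0.25 (5.14-fold lower, adjusted p = 0.00827). Mmp7, the matrilysin protease, fell from -2.94 and -1.95 to -5.20 and -4.17 (-2.24, adjusted p = 0.0345), Jchain, the joining chain of secreted antibodies, by 2.53 on the log2 scale (adjusted p = 0.0208), and Nap1l5, an imprinted gene, by 2.38 (adjusted p = 0.013). With normexp Astn1, Zdbf2, Fgf21, Mmp28, Ccdc83, A2m, Myl1, Tmem269 and Mmp7 kept a negative difference, from -2.06 for Mmp28 to -1.46 for A2m, and lost their calls, and Mmp28 also lost its call with the slide as a block (adjusted p = 0.0581).

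**Figure D2:**
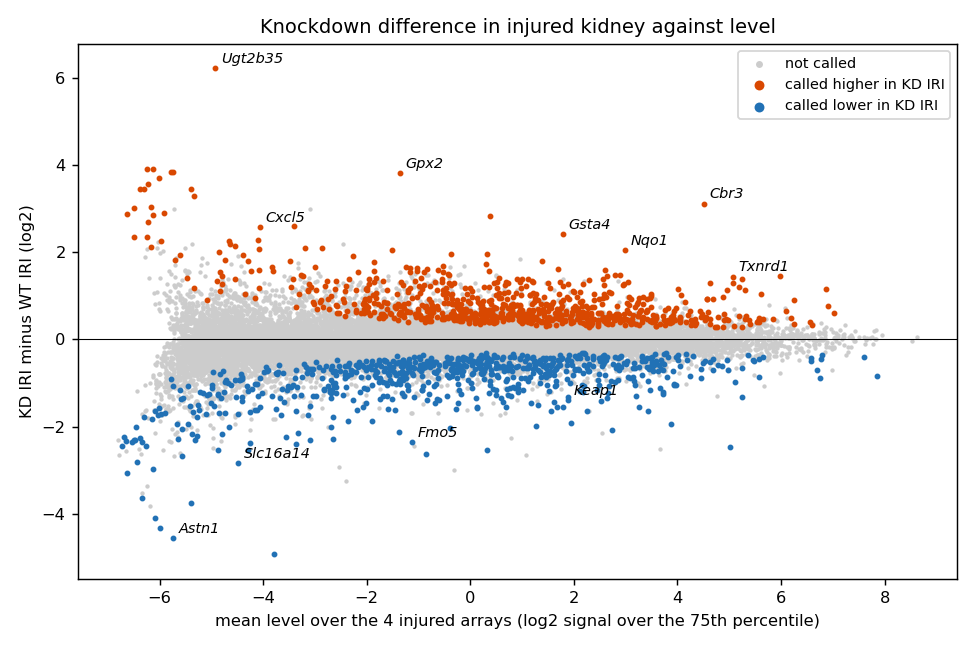
Difference KD IRI minus WT IRI (y axis, log2) of 20203 genes against their mean level over the 4 injured arrays (x axis, log2 relative to the 75th percentile), with the 765 genes called higher in orange and the 707 called lower in blue. Ugt2b35 and other dim genes make up the largest rises, whereas Cbr3, Nqo1 and Txnrd1 rise at well-measured levels.

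Genes for DNA replication were higher as a group in KD IRI. Of 28 replication genes 22 (78.6%, against 3.79% of all genes) were called higher and none lower, the difference was positive in all 28, and their median was 1.03 against -0.04 over all genes. Uhrf1, which guides DNA methylation at replication forks, lay at 1.35 and 0.43 in WT IRI and at 2.46 and 2.54 in KD IRI, a difference of 1.61 ± 0.297 (3.05-fold, adjusted p = 0.027). Mcm10, an initiation factor, lay at 1.07 and 0.02 against 1.81 and 1.92, a difference of 1.32 ± 0.306 (adjusted p = 0.0491). The 22 called genes, with differences from 0.60 to 1.61, include the helicase subunits Mcm2, Mcm3, Mcm4, Mcm6 and Mcm7, the clamp Pcna, the polymerase genes Pola1, Pold1, Pole and Prim1, and the S-phase cyclin gene Ccne1. Ccne2, the second cyclin E gene, had the largest difference of the list and did not pass (1.64, adjusted p = 0.0541). The mean level of the list was 1.25 and 0.60 on the WT IRI arrays and 1.97 and 2.03 on the KD IRI arrays, so both KD arrays were above both WT arrays, and the WT arrays were apart from each other. On the first slide the median difference was 0.73 and on the second 1.33. Without injury the median of the same 28 genes was -0.48 and 6 were lower in KD (8.84% of all genes were), and the interaction was positive and past the threshold in 21 of 28. Ccne2 was not well above background in either normal group, so its difference without injury uses such levels. None of the 28 passed when either KD IRI array was left out or when only the 4 injured arrays were fitted, 2 passed without array 1 or without array 2 of WT normal, and the median stayed between 0.74 and 1.32 over the alternatives run.

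Mitotic genes mostly had positive differences but few calls. Of 30 genes for mitosis and cytokinesis 29 had a positive difference and the median was 1.09. Called higher were 4 of the 30, against 3.79% of all genes: Top2a, Ccna2, Bub1b and Mad2l1. Top2a, topoisomerase II, lay at -1.27 and -2.03 in WT IRI and at -0.53 and 0.05 in KD IRI, a difference of 1.41 ± 0.306 (adjusted p = 0.041). Ccna2, cyclin A2, lay at 0.51 and -0.35 against 1.11 and 1.65, a difference of 1.30 (adjusted p = 0.0469). Ttk, a spindle checkpoint kinase, had a larger difference that did not pass (1.57, adjusted p = 0.0665). The median difference was 0.51 on the first slide and 1.76 on the second. Without injury the median was -0.69, and 13 of the 30 passed the interaction test in the positive direction (3.86% of all genes did). Genes were filtered on the injured arrays only. Ttk was not well above background in either normal group, nor was Top2a in KD normal, where it was at least 2.73-fold lower. Differences without injury and interactions of such genes use levels below background. With the slide as a block Ccna2 (adjusted p = 0.0574) and Bub1b (adjusted p = 0.0557) no longer passed, which left 2 calls, while normexp gave 12 calls, without Top2a, Bub1b and Mad2l1.

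Ribosome biogenesis, the making of ribosomal RNA and its assembly into subunits, also held many calls: 18 of 32 genes were higher, none lower, 31 were positive, and the median was 0.49. Nop58, a core protein of small nucleolar particles, lay at 2.21 and 2.08 against 3.01 and 3.21, a difference of 0.97 ± 0.161 (adjusted p = 0.0221). Nolc1, a nucleolar chaperone, differed by 0.87 (adjusted p = 0.0248). Dkc1, the pseudouridine synthase, had a difference of 0.79 that did not pass (adjusted p = 0.123). The list was also higher without injury, with 14 genes called and a median of 0.30, and none of the 32 passed the interaction test. Like the replication list, it held no call when either KD IRI array was left out or when only the 4 injured arrays were fitted, and 1 call without array 1 or array 2 of WT normal. Myc, a transcription factor that drives ribosome production, was higher at 0.75 and 0.99 against -0.49 and -0.15 (1.19 ± 0.189, adjusted p = 0.02). Srm, spermidine synthase, and Amd1, which supplies it with decarboxylated S-adenosylmethionine, were higher by 0.85 and 0.75 (adjusted p = 0.00783 and 0.0275), and the call of Amd1 ended with normexp.

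**Figure D3:**
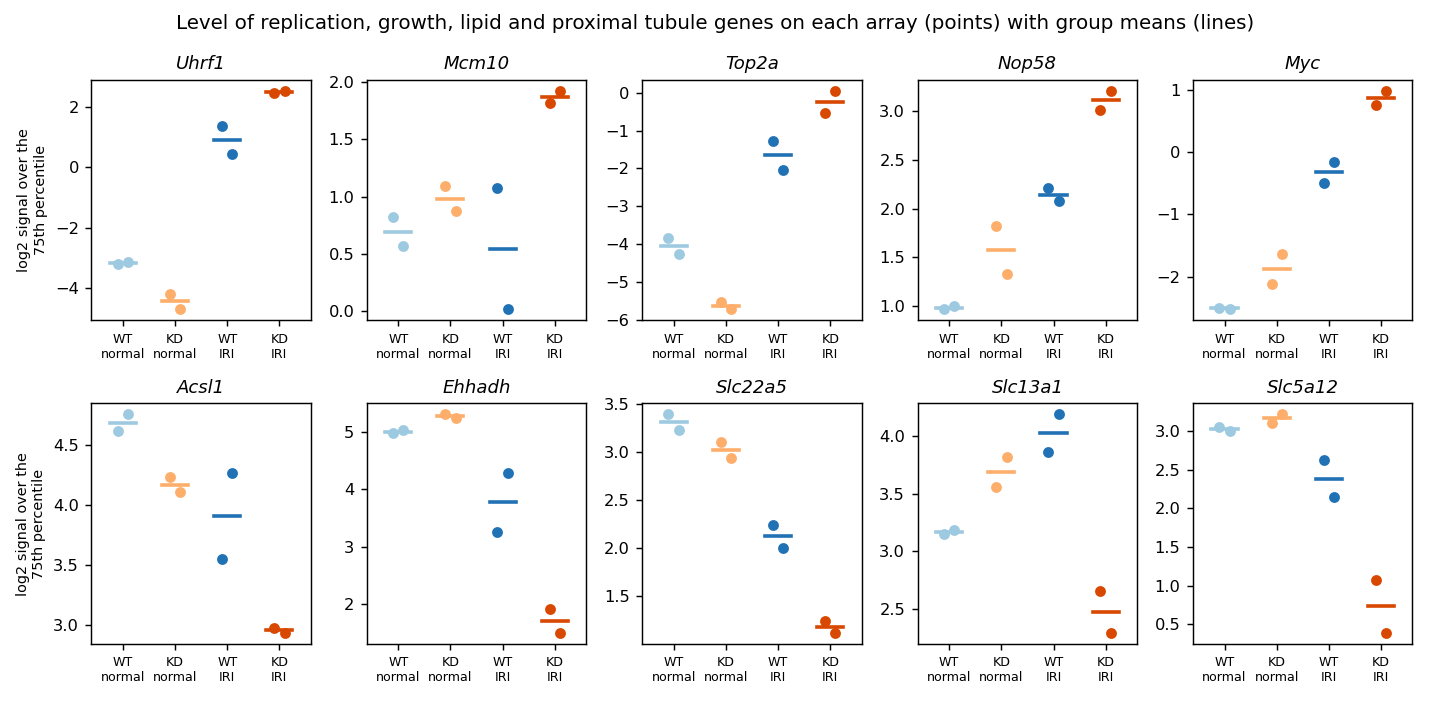
Level of 10 genes on each of the 8 arrays (points; left point slide 1, right point slide 2), with group means as lines; the y axis is the level on the log2 scale relative to the 75th percentile of the array and differs between panels. Uhrf1, Top2a, Nop58 and Myc are higher in KD IRI than in WT IRI, Acsl1, Ehhadh, Slc22a5, Slc13a1 and Slc5a12 are lower, and the 2 WT IRI arrays are far apart for Ehhadh and Mcm10.

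Genes of fatty acid oxidation were lower in KD IRI. In the list of peroxisomal oxidation and the PPARA axis all 29 genes had a negative difference, the median was -0.78, and 12 (41.4%, against 3.5% of all genes called lower) passed. Ehhadh, the bifunctional enzyme of peroxisomal beta-oxidation, lay at 3.27 and 4.29 in WT IRI and at 1.91 and 1.50 in KD IRI, a difference of -2.07 ± 0.301 (4.2-fold lower, adjusted p = 0.0176). Its interaction was -2.34 (adjusted p = 0.032), with a difference of 0.27 without injury. The called genes also included Hacl1 (-1.86), Cyp4a10 (-1.34), Ppara itself (-1.21), Cyp4a12a, Pex11a, Vnn1, Crot, Fabp3 and Abcd3. Cyp4a14, a PPARA target that hydroxylates fatty acids, lay at 0.61 and 3.24 in WT IRI, and its difference of -2.27 did not pass (adjusted p = 0.128). The WT IRI arrays had mean levels of 2.93 and 3.05 over the list, against 2.09 and 1.88 on the KD IRI arrays. Without injury 2 genes of the list were higher, 3 lower, and the median was -0.07. No gene of the list passed without array 2 of KD IRI or with only the 4 injured arrays, 4 passed without array 1 of KD IRI, 6 without array 1 or array 2 of WT normal, and the median lay between -0.94 and -0.57 over the alternatives run. Ppara lost its call with the slide as a block (adjusted p = 0.0565), and Fabp3 and Abcd3 lost theirs with normexp.

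Mitochondrial fatty acid oxidation was lower in 8 of 25 genes and higher in none, with a median of -0.46 and 24 negative differences. Acsl1, which activates long-chain fatty acids, lay at 3.55 and 4.27 against 2.98 and 2.93 (-0.96, adjusted p = 0.041), and Slc22a5, the carnitine transporter, at 2.24 and 2.00 against 1.24 and 1.11 (-0.95 ± 0.115, adjusted p = 0.012). Cpt1a and Cpt2, the carnitine palmitoyltransferases, were at -0.64 and -0.68. Acsm5, a medium-chain acyl-CoA synthetase, did not pass (-0.93, adjusted p = 0.0644), but did with the slide as a block (adjusted p = 0.0236). The block gave 14 calls in the list and normexp 5, with Cpt1a and Cpt2 among those lost. No gene of this list passed when either KD IRI array was left out. Subunits of oxidative phosphorylation and enzymes of the TCA cycle, by contrast, held no call in limma. An unadjusted p under 0.05 was found for 3 of 41 subunits and 8 of 21 TCA cycle genes, against 5468 of all 20203 genes. With the slide as a block 1 TCA cycle gene passed. The difference was negative in 40 of 41 subunits, at a median of -0.16 (0.01 with normexp background correction). In the TCA cycle 17 of 21 genes were negative, at a median of -0.16. Cox6b1 and Pcx had the largest absolute differences of these lists, -0.27 (adjusted p = 0.236) and -0.39 (adjusted p = 0.108).

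Glucose production was lower in 3 of 14 genes, and all 14 were negative with a median of -0.47. G6pc, glucose-6-phosphatase, lay at 3.11 and 2.70 in WT IRI and at 1.19 and 0.80 in KD IRI, a difference of -1.91 ± 0.367 (3.75-fold lower, adjusted p = 0.0301). Slc37a4, which carries glucose-6-phosphate to that enzyme, lay at 4.48 and 4.40 against 3.55 and 3.30 (-1.01, adjusted p = 0.0109). For both genes the interaction passed the test, at -3.03 for G6pc and -1.58 for Slc37a4. Fbp1, fructose-1,6-bisphosphatase, was at -0.82 and did not pass (adjusted p = 0.0751), but did with the slide as a block (adjusted p = 0.0331). Amino acid breakdown was lower in 4 of 31 genes at a median of -0.29: Fah, of tyrosine breakdown, was at -1.04 (adjusted p = 0.0276), and Hpd, Gldc and Prodh were the others, of which Hpd lost its call with the slide as a block (adjusted p = 0.0547) and Prodh with normexp. Of 30 cytochrome P450 genes 8 were lower and 1 higher, at a median of -0.45. Cyp2e1, which oxidises ethanol and other small solvents, lay at 3.55 and 2.90 against 2.20 and 1.42 (-1.42, adjusted p = 0.0328). Cyp1a1, the aryl hydrocarbon receptor target, was the higher one (0.96, adjusted p = 0.0377), but its difference was -0.44 with normexp background correction. In the list of NAD synthesis, tryptophan and polyamine metabolism 2 of 21 genes were lower, 2 were higher and 17 were not called. The lower ones were Sirt3, a mitochondrial deacetylase, and Kmo, of kynurenine metabolism, at -0.86 and -0.98 (adjusted p = 0.0195 and 0.0374). Sirt3 did not pass with normexp (adjusted p = 0.0558). The higher ones were Srm and Amd1, given above.

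Several transport genes of the proximal tubule were lower, with a large spread between the WT arrays. Of 35 genes of proximal tubule transport and reabsorption 8 were lower, 1 was higher, and the median was -0.35. Slc13a1, the sulfate cotransporter, lay at 3.87 and 4.19 in WT IRI and at 2.65 and 2.29 in KD IRI, a difference of -1.56 ± 0.161 (2.94-fold lower, adjusted p = 0.00815). Slc5a12, a lactate transporter, lay at 2.62 and 2.14 against 1.08 and 0.39, a difference of -1.65 ± 0.235 (adjusted p = 0.0167). The others called lower were Slc7a9, Slc4a4, Slc27a2, Slc6a19, Slc7a7 and Slc5a2, and Slc26a1, a sulfate and oxalate exchanger, was higher (0.98, adjusted p = 0.0398). Slc34a1, the main phosphate cotransporter, lay at 5.46 and 4.55 against 4.72 and 4.50, so the groups overlapped, and its difference of -0.40 did not pass (adjusted p = 0.373). Slc7a12, the member with the largest absolute difference that did not pass, was at -1.10 (adjusted p = 0.617). The WT IRI arrays had mean levels of 2.84 and 2.19 over the list, against 2.27 and 1.89 on the KD IRI arrays, and 32 of the 35 genes were higher on array 1 of WT IRI than on array 2. Without array 1 of WT IRI the median was 0.02, without array 2 of WT IRI it was -0.70, and without array 2 of KD IRI no gene of the list passed. With normexp the calls of Slc27a2, Slc7a7 and Slc5a2 ended, and with the slide as a block that of Slc5a2 (adjusted p = 0.0513). In whole kidney, fewer cells of a type and less RNA per cell cannot be told apart.

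The loop and distal tubule list had a share of calls near that of the proximal tubule list, 22.2% against 25.7%. In the collecting duct list the share was 13.6%. In the loop and distal tubule list 3 of 18 genes were lower and 1 was higher, at a median of -0.37. Over all genes 3.5% were called lower and 3.79% higher. Egf, a growth factor made in the distal tubule, lay at 0.61 and -0.05 in WT IRI and at -0.74 and -0.75 in KD IRI (-1.02, adjusted p = 0.027), Ptger3, a prostaglandin E receptor, was at -1.01 (adjusted p = 0.0109), and the tight junction gene Cldn14 was higher (1.55, adjusted p = 0.0186). Trpm6, the magnesium channel, was at -1.18 and did not pass (adjusted p = 0.0503), but did with the slide as a block (adjusted p = 0.0457). In the collecting duct list the 3 of 22 genes that were lower are the 3 subunits of the epithelial sodium channel, Scnn1g at -0.73 (adjusted p = 0.00815), Scnn1a at -0.69 (adjusted p = 0.0284) and Scnn1b at -0.48. Scnn1a was lower by a like amount without injury (-0.71, adjusted p = 0.018). Atp6v0d2, a proton pump subunit of intercalated cells, had the largest absolute difference that did not pass, -0.59 (adjusted p = 0.128). Of 14 podocyte genes Nes was higher (0.80, adjusted p = 0.0338), and of 18 endothelial genes Ehd3 was lower (-0.57, adjusted p = 0.045). Cldn14 (0.76, adjusted p = 0.353), Scnn1b and Ehd3 did not pass with normexp, nor did Ehd3 with the slide as a block (adjusted p = 0.0553). Flt1, the VEGF receptor, did not pass (-0.42, adjusted p = 0.198).

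Of 28 tubule injury markers 3 were higher (3.79% of all genes were called higher) and none was lower, at a median of 0.29. With normexp background correction 9 were higher and 2 lower. Havcr1, known as kidney injury molecule 1, lay at 4.41 and 5.07 in WT IRI and at 5.52 and 5.35 in KD IRI, a difference of 0.69 ± 0.369 (adjusted p = 0.278) that passed with normexp (adjusted p = 0.00749). Lcn2, which codes for neutrophil gelatinase-associated lipocalin, lay at 2.39 and 3.71 against 2.61 and 2.76, a difference of -0.37 ± 0.517 (adjusted p = 0.686), with the KD arrays inside the range of the WT arrays. The calls were Gdf15, a stress cytokine (0.97 ± 0.138, adjusted p = 0.0168), the adhesion receptor Cd44 (0.73, adjusted p = 0.0238) and Tnfrsf12a, the TWEAK receptor (0.64). Gdf15 was higher by 2.11 without injury, and its interaction was -1.14 (adjusted p = 0.028). Igfbp1, an insulin-like growth factor binding protein, lay at 1.90 and 2.91 against 0.09 and -0.57 and did not pass (-2.65, adjusted p = 0.0683). In a separate list of 31 repair transcription factors and growth factors 2 were higher, 2 lower and 27 not called, at a median of -0.03. Among its calls Klf5, a transcription factor of injured epithelium, was higher (1.19, adjusted p = 0.03), and Agt, angiotensinogen, was lower (-1.01, adjusted p = 0.0306).

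Among inflammatory genes the calls were few and fell mostly on cytokines and chemokines. None of 16 neutrophil genes tested in the list passed in limma, at an adjusted or an unadjusted p under 0.05. The largest absolute difference was that of Retnlg, at -0.11 and 2.23 on the WT arrays against -0.80 and -0.52 (-1.72, adjusted p = 0.439), and it alone of the list passed with normexp. Over the neutrophil list the WT IRI arrays had mean levels of -1.47 and -0.34, with both KD IRI arrays between them at -1.23 and -0.92. Of 25 monocyte and macrophage genes Marco, a scavenger receptor, was called: it lay at -4.33 and -4.16 against -2.37 and -1.94, a difference of 2.09 ± 0.221 (4.25-fold, adjusted p = 0.00827). Of 28 cytokines and chemokines 3 were higher and 1 was lower, 14.3% against 7.29% of all genes called. Ccl20, a ligand of CCR6, rose from -3.18 and -4.63 to -1.86 and -1.74 (2.10, adjusted p = 0.0471), Csf1, the macrophage growth factor, by 0.81, and Cxcl12 was lower at -0.35 (adjusted p = 0.0477). Il6 had a difference of 1.69 that did not pass (adjusted p = 0.096). With normexp the calls of Marco (0.48, adjusted p = 0.63), Ccl20 (0.30, adjusted p = 0.798), Cxcl5 and Cxcl12 ended, and that of Cxcl12 also with the slide as a block (adjusted p = 0.0529). The median of the cytokine list was 0.36, and it was -0.03 with normexp background correction. Neither the 20 interferon-stimulated genes nor the 9 lymphocyte genes tested held a call in limma. At an unadjusted p under 0.05 they held 1 and 0, against 5468 of all 20203 genes. Cxcl10, a chemokine induced by interferon, was at 0.65 (adjusted p = 0.319).

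Complement, coagulation and matrix genes moved in both directions. Of 22 complement and coagulation genes 3 were higher and 4 lower, against 3.79% and 3.5% of all genes. Plaur, the urokinase receptor, lay at 2.30 and 2.48 in WT IRI and at 3.57 and 3.85 in KD IRI (1.32 ± 0.169, adjusted p = 0.013), its ligand Plau was higher by 0.82, and F3, tissue factor, by 0.82 (adjusted p = 0.0199). F5 was not well above background on either KD IRI array and was at least 2.99-fold lower. Its adjusted p of 0.0167 uses those levels below background. C4b was at -0.93 (adjusted p = 0.0302). Fga, the fibrinogen alpha chain, lay at -0.19 and 2.54 in WT IRI and at -1.93 and -1.71 in KD IRI, a difference of -2.99 that did not pass (adjusted p = 0.0626), but did with the slide as a block (adjusted p = 0.0406). F5 lost its call with normexp (adjusted p = 0.347). In the matrix and stroma list 4 of 31 genes were higher and 2 lower: Fn1, fibronectin, lay at -0.04 and 0.25 against 0.90 and 1.46 (1.07, adjusted p = 0.0401), and Col1a1 at 4.07 and 4.14 against 4.87 and 5.20 (0.94 ± 0.146, adjusted p = 0.0195). Col1a1 was lower without injury, at -0.76, and its interaction of 1.70 passed (adjusted p = 0.017). The fallers were Mmp7 and Timp3, an inhibitor of matrix proteases (-0.65, adjusted p = 0.0322), and both lost their calls with normexp.

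Other stress programmes differed in how many of their genes were called. None of 22 heat-shock genes and none of 27 genes of the unfolded protein and ATF4 response passed in limma, at medians of 0.22 and -0.09. In each list 6 had an unadjusted p under 0.05, against 5468 of all 20203 genes. Without injury 12 and 11 of them were higher in KD, against 6.41% of all genes. Chordc1 and Psat1 had the largest absolute differences, 0.81 (adjusted p = 0.057) and -0.93 (adjusted p = 0.0797), and with the slide as a block both passed (adjusted p = 0.037 and 0.0276). With normexp 4 heat-shock genes were higher, and 3 genes of the unfolded protein and ATF4 response were higher and 1 lower. Of 19 immediate-early and stress transcription factors 2 (10.5%, against 7.29% of all genes called) were higher: Myc, above, and Fosl1, a partner of JUN, which lay at -0.81 and -0.51 in WT IRI and at 1.09 and 1.52 in KD IRI (1.97 ± 0.351, adjusted p = 0.0253). Of 31 glycolysis and hypoxia genes 5 were higher and 1 lower, 19.4% in all. Hk2, hexokinase 2, lay at 0.36 and 0.60 against 2.16 and 2.39 (1.79 ± 0.3, 3.47-fold, adjusted p = 0.0223), and it was higher by 1.80 without injury as well. Adm, adrenomedullin, was higher by 1.33 (adjusted p = 0.0124) and Ndrg1 lower at -0.87 (adjusted p = 0.0195), 2 hypoxia targets that moved in opposite directions. Of 18 clock genes 2 (11.1%) were lower and none higher, among them the deubiquitinase gene Usp2 (-0.68, adjusted p = 0.0179). Gdf15 was the only one of 31 genes for p53 targets and cell death to pass, and Psmd12 the only one of 38 proteasome subunits (0.36, adjusted p = 0.0447), a call that ended with the slide as a block (adjusted p = 0.0501), while that of Ndrg1 ended with normexp.

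**Figure D4:**
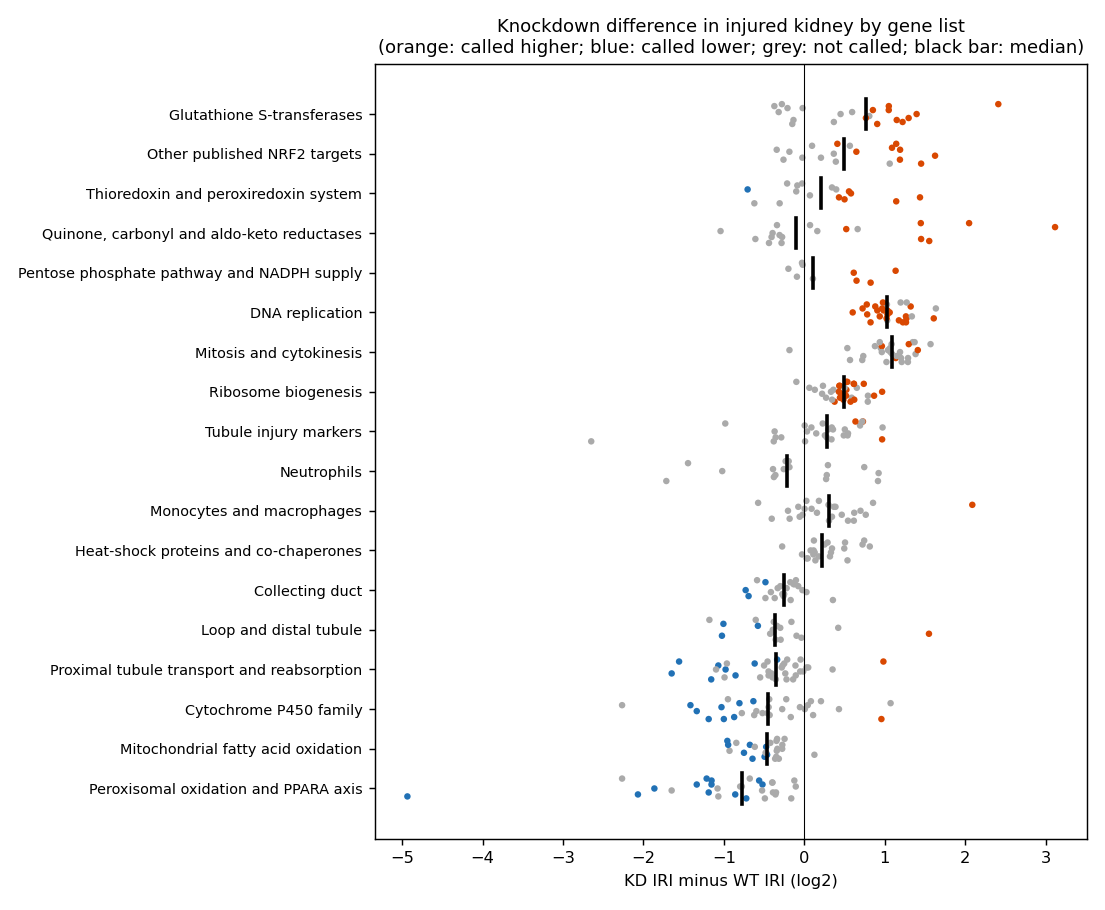
Difference KD IRI minus WT IRI (x axis, log2) of each tested member of 18 gene lists (points; orange called higher, blue called lower, grey not called), with the list's median as a black bar. The replication list lies right of 0, as do 29 of 30 mitosis and 31 of 32 ribosome biogenesis genes, the PPARA list lies left of 0, as do 24 of 25 mitochondrial oxidation genes, and in the list of quinone, carbonyl and aldo-keto reductases the called genes lie far from a median of -0.10.

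The same knockdown without injury gave 3082 calls (15.3% of the same 20203 genes), 1296 (6.41%) higher and 1786 (8.84%) lower, from 4 arrays that share none with the injured comparison. The filter used the injured arrays only, so genes below background in a normal group were kept, and their p-values use such levels. Of the 1472 injured calls 457 were called in both, 358 in the same direction (24.3% of the injured calls and 11.6% of the uninjured ones) and 99 in opposite directions. Across all genes tested the differences with and without injury correlated at r = 0.088. The 10 genes with the largest changes among those called in both included Ugt2b35, Cbr3, Gpx2, Ptchd1, Fosl1, Hk2, Myl1, Gabrd and A2m. Gabrd, a subunit of GABA receptors, was lower in both (-1.61 with injury and -1.79 without), the first of which did not pass with normexp (adjusted p = 0.304). A2m, a protease inhibitor, was at least 1.73-fold lower with injury and at least 1.445-fold higher without it. It was not well above background in KD IRI or in WT normal. Myl1 was below background in both KD groups and Ugt2b35 in both WT groups. Fosl1 was below it in WT normal, so the size of its difference without injury was not measured.

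The interaction, which tests whether the knockdown difference depends on injury, passed for 1339 genes (6.63%), 780 (3.86%) with a more positive and 559 (2.77%) with a more negative difference in injured kidney. Of the 1472 injured calls 484 (32.9%) passed it, so for the other injured calls a difference from uninjured kidney was not shown. The 9 largest fitted interactions were in Angptl7 and Fga, which were above background in all 4 groups, and in Astn1, A2m, Atp13a4, Slc16a14, Doc2b, Zdbf2 and Clic6, which were below it in at least 1 group, so that their size and order were not measured. Angptl7, an angiopoietin-like protein, lay at 4.44 and 6.02 in KD normal and at -0.63 and -1.06 in KD IRI, against -0.27 and 0.95 in WT IRI, an interaction of -6.60 (adjusted p = 0.017). Slc16a14 was higher by 1.23 in KD without injury and lower with injury, where it was below background on both KD arrays, and its interaction passed (adjusted p = 0.0027). Clic6, a chloride channel family member, did not differ between the injured groups beyond its spread (-0.05, adjusted p = 0.93) but was not well above background in KD normal, where it was at least 4.51-fold lower, and its interaction passed (adjusted p = 0.012).

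**Figure D5:**
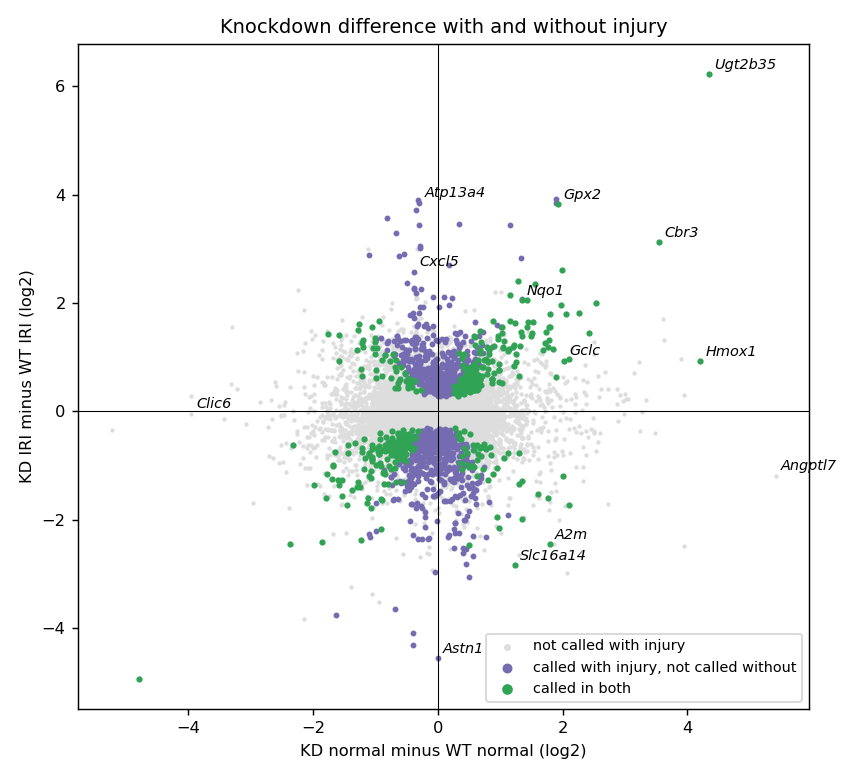
Difference KD IRI minus WT IRI (y axis, log2) against KD normal minus WT normal (x axis, log2) for 20203 genes; green points are the 457 genes called in both comparisons, purple points those called with injury and not without. Ugt2b35, Cbr3 and Gpx2 are far to the upper right, and Hmox1 and Gclc lie further right than up.

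Neighbours of the targeted locus were read as a group. Of the 20 tested genes with a symbol on each side of Keap1 on chromosome 9, 4 were higher in KD IRI (Ppan, Dnmt1, S1pr2 and Qtrt1) and 1 lower (Angptl6), that is 5 of 40 against 7.29% of all genes, and the other 35 were not called. Ppan, a ribosome biogenesis factor, differed by 1.27, and Dnmt1, the maintenance DNA methyltransferase, by 0.68. Whether these calls are tied to the position was not tested.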

How the data were processed

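RNA from left kidneys was hybridised to 8 1-colour Agilent arrays, per the labels. The intensities are processed spot signals from Feature Extraction 10.7.3.1, background-corrected in the deposited scanner files, per the file headers. The deposited series table holds log2 values whose array medians lie between -0.136 and 0.16 and which followed the centred scanner values at r of at least 0.999948 on every array; the authors' exact centring is not given in the sources used here, and it served as an alternative.

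From the scanner files, control spots and outliers were left out, spots of a probe were averaged, and log2 signal minus the array's 75th percentile was computed. The brightest probe stood for a gene. Symbols were updated through RefSeq (GRCm38.p6), for names only. A model with 4 group means was fitted to all 8 arrays in limma 3.58.1 (R 4.3.3) with empirical Bayes moderation and an intensity trend, which left 4 residual degrees of freedom, and p-values were adjusted by Benjamini-Hochberg over 20203 genes. Errors beside differences are standard errors of the fit, which pool the spread of all 8 arrays and not of the injured arrays alone. The spread could differ between normal and injured arrays in either direction. The SD of Ehhadh was 0.031 in WT normal and 0.05 in KD normal, against 0.721 in WT IRI and 0.288 in KD IRI. That of Synpo was 0.765 and 0.845 against 0.215 and 0.024. Precision is limited by how many arrays there are. The fit was tested on simulated data.

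Named genes are the 15 largest called rises and falls, fixed genes of the pathway and of kidney injury, for each list up to 2 called members in each direction and the largest member not called, and the 10 largest changes in both comparisons and in the interaction. The members and lists were chosen with earlier results of these data known. Alternatives were other normalization, background correction, filters, variance models, probe summaries, a 2-fold minimum, fewer arrays and the slide as a block. Replicate numbers coincide with slides. Same-slide arrays of different groups deviated together at r between 0.0192 and 0.268 over 6 pairs of groups, and the fit is given without the block. A few genes that the rule names are not reported here.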

Additional observations from a re-analysis of the deposited data

Results flagged for a closer look

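Differences of the knockdown effect between injured and uninjured kidney were flagged by the interaction test in limma, which 1339 genes passed. The largest fitted values were negative for Angptl7 (-6.60), Fga (-5.06), Astn1 (-4.56), A2m (-4.24), Slc16a14 (-4.07) and Zdbf2 (-3.93), and positive for Atp13a4 (4.15), Doc2b (3.99) and Clic6 (3.90). Angptl7 and Fga were above background in all 4 groups. The other 7 were below it on both arrays of at least 1 group, Atp13a4 and Doc2b in every group but KD IRI and Zdbf2 in every group but WT IRI, so their fitted values are no measured sizes and have no order. Of the genes followed in every comparison, Hmox1 (-3.28) and Gclc (-1.08) had a smaller rise with injury than without. No explanation was tested for these values.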

How the results depend on the processing

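Leaving out 1 array moved the injured calls between 24 and 1581, the uninjured ones between 113 and 3793 and the interaction calls between 6 and 1702. For the injured comparison the lowest counts came without either KD IRI array or either WT normal array. With only the 4 injured arrays 79 genes passed, and with a 2-fold minimum 438, against 842 without injury and 777 for the interaction. With normexp background correction 1302 genes passed without injury. Without a filter 2001 passed there and 550 for the interaction. The interaction gave 660 calls in the deposited table and 789 without the intensity trend. The other alternatives kept each count within 1.5 times. Normexp moved the median injured difference of all genes from -0.04 to -0.208 and kept 768 of the 1472 calls. Of the 217 called genes followed it kept 142 calls and reversed 9: Adam23 (-0.73), Atp13a4 (-0.051), Cyp1a1 (-0.44), Doc2b (-0.69), Igf2bp3 (-0.52), Lce1i (-0.11), Olfr19 (-0.026), Slitrk4 (-0.0021) and Sppl2c (-0.51). The cause was not tested. With the slide as replicate block 1820 injured genes passed, 1389 of them shared with the 1472, and 207 of the 217 genes followed kept their call; losses among named genes stand beside them. The samples share only a number and a slide. Same-slide arrays of WT IRI and KD IRI deviated together at r = 0.156, while not every pair of groups did so at r over 0.1.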

Other observations

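Several further lists held few calls in KD IRI against WT IRI. Of 11 genes in the fat and adrenal list Cyp17a1, a steroid hydroxylase, was lower (-0.58, adjusted p = 0.0249 in limma). Star, the adrenal marker, had a positive difference that did not pass (0.31, adjusted p = 0.197). The median of the 11 genes was -0.91, with -0.17 on the first slide and -1.62 on the second. Their mean level was lowest on array 2 of KD IRI, at -2.33, against -1.09 on array 1 and -0.97 and -0.64 on the WT IRI arrays. Of 26 inflammatory signalling and prostaglandin genes Ptgds, a prostaglandin D synthase, was lower (-1.21, adjusted p = 0.0378), while Saa3, an acute-phase protein, had a difference of -1.58 that did not pass (adjusted p = 0.324). Of 10 metallothionein and zinc transport genes Slc39a4 was higher and Slc39a8 lower (-0.66, adjusted p = 0.0314), both zinc importers. Of 28 cholesterol and lipid genes Scd2, a fatty acid desaturase, was higher (0.52, adjusted p = 0.0268). Of 15 housekeeping genes Actg1 was higher (0.49, adjusted p = 0.0442), and their median was 0.05. Of 7 blood genes none passed in limma at an adjusted or an unadjusted p under 0.05.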
